A study of Rattus norvegicus with 10 samples.

Results

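Cultured heart muscle cells and cultured heart fibroblasts of newborn rats were compared across all genes while both were kept in the α1-adrenergic agonist phenylephrine. The libraries were chosen by their labels as the 3 of cardiomyocytes and the 2 of cardiac fibroblasts in serum-free medium with 10 µM phenylephrine, which make 5 of the 10 libraries sequenced. Of 28522 gene symbols, 19808 had a count in any library and 13869 passed the filter on low counts and were tested. The other 5 libraries, 3 of cardiomyocytes and 2 of fibroblasts in serum-free medium alone, share no library with these 5 and served to ask whether a cell type difference depended on the agonist. The cells came from the ventricles of rats 1 to 3 days old, were released with an enzyme kit and were parted into 2 fractions on a Percoll density gradient. Cardiomyocytes were plated as counted live cells and not passaged, whereas fibroblasts were plated uncounted and were at passage 2, so that cell type, plating density and passage cannot be told apart. Phenylephrine was given in the serum-free medium that replaced the plating medium 24 h after plating. Its duration is not stated, nor is whether replicates were separate cultures or litters, so the spread behind every p-value is that between libraries and may be technical.

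Cardiomyocytes shorten by sliding actin and myosin filaments in sarcomeres, are coupled end to end by intercalated discs and live mainly on mitochondrial oxidation. Cardiac fibroblasts lay down and remodel the collagenous matrix around them and, on stiff culture plastic, take on features of contractile myofibroblasts. Phenylephrine acts through Gq-coupled α1-adrenergic receptors and is a standard agent for making cultured cardiomyocytes grow. The counts are of bulk RNA, in which fewer cells of a type and less RNA of a gene per cell cannot be told apart.

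The 3 cardiomyocyte libraries held 18397495 to 20908662 counts and the 2 fibroblast libraries 18048944 and 19192379. A floor of 3 counts lay between 0.145 and 0.166 CPM (a gene's count relative to the scaled library total), from counting error alone. Counts were detected for 16786 to 16951 symbols in cardiomyocytes and for 16374 and 16507 in fibroblasts, and the mitochondrially encoded genes took 6.49% to 7.5% and 2.7% to 3.01% of the counts. Replicates of the fibroblasts differed by a chi-square of 2.51 for each degree of freedom, where counting error alone gives about 1. Among the cardiomyocytes, replicates 2 and 3 differed by 3.11, whereas replicate 1 stood apart from them at 19.4 and 24. The summed level of 12 fibroblast markers was 8880 to 15000 CPM over the cardiomyocyte libraries, against 54400 and 56500 CPM in the fibroblast libraries. Replicate 1 was the highest cardiomyocyte library for Col1a1, Col3a1 and Pdgfra, whose values follow. Among markers of the labelled cell types, 10 of 10 tested for cardiomyocytes were higher in cardiomyocytes and 11 of 12 for fibroblasts were lower. The exception was Lum, a matrix proteoglycan, at log2 -0.44 ± 0.28 (SE, here and below worked back from the test statistic). Over all genes tested, 33.7% were higher and 31.2% lower. The marker lists include Nppb, Xirp2, Bmp7, Cpxm2 and Aldh1a1, which were picked to mark these cultures, so the counts are no independent check of the labels.

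Most of the genes tested differed between the cell types, and the differences were lopsided in size. The edgeR quasi-likelihood test called 9008 genes, which is 65.0% of those tested, at a Benjamini-Hochberg adjusted p below 0.05. Of them 4674 (33.7%) were higher and 4334 (31.2%) lower in cardiomyocytes, and the median log2 difference was 0.02 over all genes tested, 1.00 over the higher calls and -0.71 over the lower calls. By at least 2-fold, 2345 genes (16.9%) were higher and 1500 (10.8%) lower. The counts were 1309 (9.44%) and 418 (3.01%) at 4-fold and 804 (5.8%) and 134 (0.966%) at 8-fold. At 16-fold they were 562 (4.05%) and 49 (0.353%), at 64-fold 288 (2.08%) and 6 (0.0433%), and at 256-fold 122 (0.88%) and 1 (0.00721%). All cardiomyocyte libraries lay above both fibroblast libraries for 5602 genes (40.4%) and below both for 5402 (39.0%). A level of at least 10 CPM in cardiomyocytes with less than 0.5 CPM in fibroblasts was met by 116 genes, and the reverse by 3, which were Aldh1a1, Dync1i1 and Nppc. Without cardiomyocyte replicate 1 the calls were 4722 higher and 4326 lower.

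**Figure D1:**
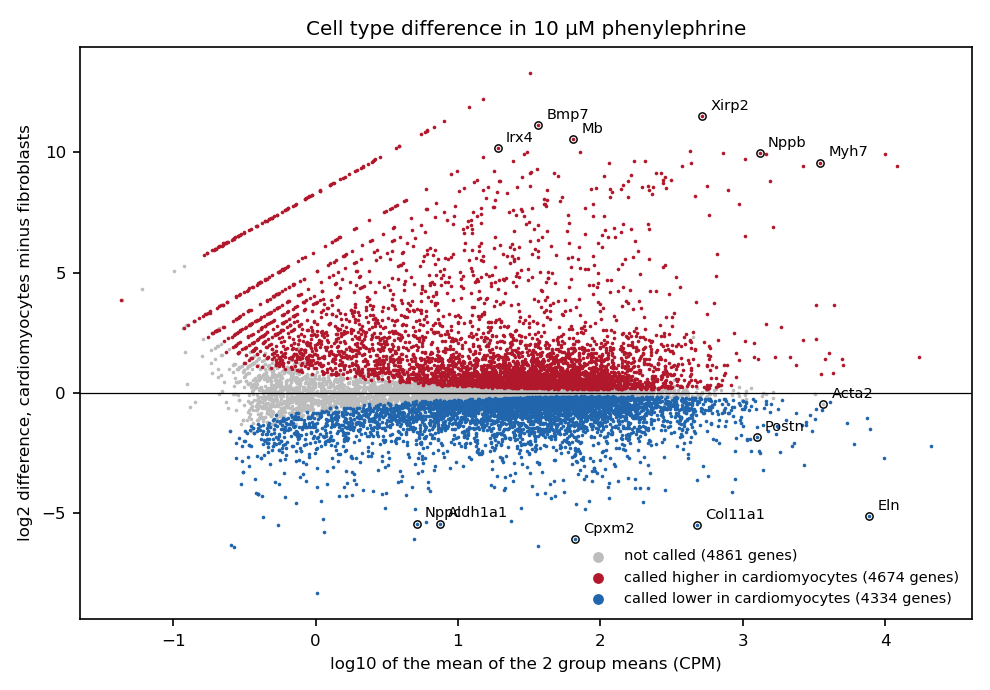
Fitted log2 difference between cardiomyocytes and fibroblasts in 10 µM phenylephrine (vertical axis) against the log10 of the mean of the 2 group means in CPM (horizontal axis), 1 point for each of 13869 genes tested. Red points are the 4674 genes called higher in cardiomyocytes and blue points the 4334 called lower. The upward arm reaches farther than the downward arm, and the straight diagonal edges at the upper left are genes with no count or few counts in fibroblasts, whose fitted values are no bounds.

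The genes picked to mark the 2 cultures did not overlap between the cell types in any library, which their choice favoured. Over all genes tested, 40.4% likewise had every cardiomyocyte library above both fibroblast libraries and 39.0% below. Nppb, the precursor of B-type natriuretic peptide and a classic marker of cardiomyocyte stress, was at 2550, 2640 and 2680 CPM in the 3 cardiomyocyte libraries and at 2.55 and 2.71 CPM in the fibroblast libraries. That is a log2 difference of 9.96 ± 0.14 (SE, adjusted p = 1.48e-12). Xirp2, an actin-binding repeat protein of muscle attachment sites, had 1210, 1070 and 837 CPM against 0.208 and 0.497 CPM. No cardiomyocyte library came near a fibroblast library for either gene. The Xirp2 difference was log2 11.52 ± 0.48, or 11.01 and 12.24 without fibroblast replicates 1 and 2. The fibroblast group held only 13 counts of Xirp2. Bmp7, a bone morphogenetic protein, was at 59.4, 79.6 and 81.6 CPM in cardiomyocytes, and the fibroblast libraries held no count and 0.0553 CPM. Its ratio was 2750, with a 95% counting interval from 493 to 109000 (exact binomial).

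In the other direction, Cpxm2, a secreted protein of the carboxypeptidase family, was at 2.17, 1.36 and 2.27 CPM in cardiomyocytes and at 128 and 135 CPM in fibroblasts (log2 -6.07 ± 0.15, adjusted p = 3.47e-11). Aldh1a1, a retinaldehyde dehydrogenase that makes retinoic acid, was at 0.583, 0.217 and 0.193 CPM against 14.5 and 14.7 CPM (-5.45 ± 0.31). The cardiomyocyte libraries lay below the fibroblast libraries for both genes. For Aldh1a1 replicate 1 was the highest cardiomyocyte library. The difference was log2 -6.11, -5.24 and -5.16 without cardiomyocyte replicates 1, 2 and 3 in turn. In the authors' deposited table the log2 fold changes of the same comparison were 9.97 for Nppb, 11.55 for Xirp2, 11.43 for Bmp7, -6.07 for Cpxm2 and -5.47 for Aldh1a1.

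Called genes of at least 10 CPM in cardiomyocytes whose libraries did not overlap were ranked by fitted difference. The top of that ranking included genes with no count at all in fibroblasts with phenylephrine, whose fitted values are no bounds. All of the lower bounds given below lie under the fitted folds of some genes with fibroblast counts, such as Myl2 (1010-fold) and Actc1 (987-fold). These genes are thus not shown to have the largest excesses. Against a floor of 3 counts over the fibroblast group, Inpp5j, an inositol polyphosphate phosphatase, was at least 795-fold higher. Nsg2, a membrane protein known mainly from neurons, was at least 373-fold higher and Kcnj11, the pore subunit of ATP-sensitive potassium channels, at least 297-fold. Tcap, the telethonin that caps titin at the Z-disc, was at least 168-fold higher, and Myl1, the essential light chain of fast skeletal muscle, at least 152-fold. Glod5 (at least 151-fold), Palldl1 (147-fold) and Ptgds, a prostaglandin D synthase (138-fold), follow on the same scale of lower bounds. Mb, the oxygen-binding myoglobin, was at 143, 114 and 131 CPM against 0.156 CPM and no count, a ratio of 1610 (counting interval 552 to 7820). Irx4, a homeobox factor of the ventricle, had a ratio of 1430 (256 to 56500).

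The largest excesses in fibroblasts are given for called genes of at least 10 CPM in fibroblasts whose libraries did not overlap; genes at lower levels can lie beyond them. Akr1c14, an aldo-keto reductase of steroid metabolism, was lower in cardiomyocytes by log2 -6.36 ± 0.29. Col11a1, a minor fibrillar collagen, was at 34.2, 13.7 and 13.9 CPM in cardiomyocytes and at 946 and 931 CPM in fibroblasts (-5.51 ± 0.45), and Eln, elastin, at 432, 399 and 458 CPM against 14800 and 15400 CPM (-5.13 ± 0.35). For Col11a1 cardiomyocyte replicate 1 lay well above the other 2. Nppc, the precursor of C-type natriuretic peptide, differed by -5.45 ± 0.25, Dync1i1, a dynein intermediate chain, by -5.37 ± 0.43 and Arhgap20, a GTPase-activating protein, by -5.34 ± 0.24. Figf, which encodes vascular endothelial growth factor D, differed by -4.83 ± 0.11, Cpz, a Wnt-binding carboxypeptidase, by -4.61 ± 0.23 and Ptn, the growth factor pleiotrophin, by -4.54 ± 0.48. Myh2, a fast skeletal myosin heavy chain, was also among them, at 2.81, 1.25 and 1.74 CPM against 49 and 58.4 CPM (-4.79 ± 0.30). Without cardiomyocyte replicates 1, 2 and 3 in turn, Dync1i1 was at -5.98, -5.12 and -5.15.

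**Figure D2:**
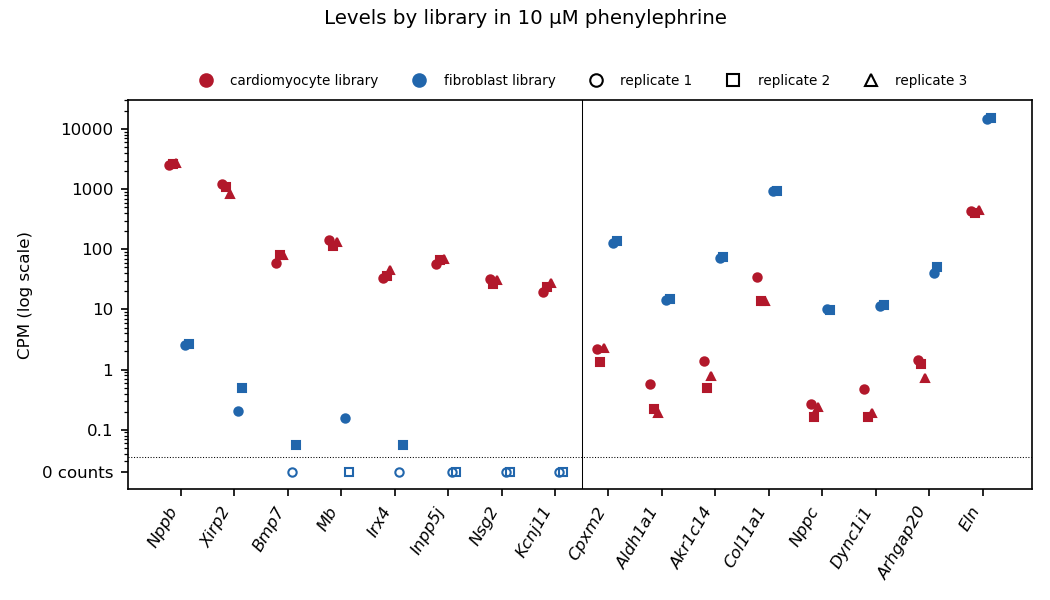
Level of 16 genes in each of the 5 libraries in 10 µM phenylephrine, in CPM on a log axis, with symbols for replicates, red for cardiomyocytes and blue for fibroblasts. Open symbols under the dotted line are libraries with no count. The 8 genes on the left are higher in every cardiomyocyte library than in either fibroblast library, and the 8 on the right are lower. They were picked as markers or among genes whose libraries did not overlap. Cardiomyocyte replicate 1 (circle) lies above its group mates for Col11a1, Aldh1a1, Akr1c14 and Dync1i1.

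The promoters of some of these genes are shown because the base sequence just before the start site carries short motifs bound by the muscle and hypertrophy factors whose transcripts were measured here. Each is the 250 bases before the annotated start in RefSeq (build GRCr8, not the build of the counts), 5′ to 3′ on the gene's strand, with matches on either strand in capitals. The motifs searched were the MEF2 site, the CArG box that binds serum response factor, AGATAA for GATA factors, GGAATG for TEAD factors, TGANTCA for AP-1 and TATAAA for the TATA box. The 3 genes of the cardiomyocyte side are Xirp2 at chr3:72533936-72534185 on the plus strand, Nppb at chr5:163699758-163700007 on the plus strand and Acta1 at chr19:68784195-68784444 on the minus strand. The 3 of the fibroblast side are Cpxm2 at chr1:196377348-196377597 on the minus strand, Aldh1a1 at chr1:227537370-227537619 on the plus strand and Nppc at chr9:94772187-94772436 on the minus strand.
Xirp2: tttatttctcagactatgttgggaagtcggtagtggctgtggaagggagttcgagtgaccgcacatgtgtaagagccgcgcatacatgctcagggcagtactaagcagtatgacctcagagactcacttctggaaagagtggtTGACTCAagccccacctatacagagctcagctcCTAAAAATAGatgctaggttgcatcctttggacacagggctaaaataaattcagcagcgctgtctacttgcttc
Nppb: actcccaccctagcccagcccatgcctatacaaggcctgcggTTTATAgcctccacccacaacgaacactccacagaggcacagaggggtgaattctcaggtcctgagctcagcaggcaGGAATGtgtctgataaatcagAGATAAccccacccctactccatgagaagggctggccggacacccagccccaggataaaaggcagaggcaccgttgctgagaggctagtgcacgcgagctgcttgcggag
Acta1: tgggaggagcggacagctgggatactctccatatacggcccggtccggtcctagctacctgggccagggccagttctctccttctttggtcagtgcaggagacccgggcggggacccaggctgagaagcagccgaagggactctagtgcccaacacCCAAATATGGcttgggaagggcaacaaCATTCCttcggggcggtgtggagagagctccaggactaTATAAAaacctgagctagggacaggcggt
Cpxm2: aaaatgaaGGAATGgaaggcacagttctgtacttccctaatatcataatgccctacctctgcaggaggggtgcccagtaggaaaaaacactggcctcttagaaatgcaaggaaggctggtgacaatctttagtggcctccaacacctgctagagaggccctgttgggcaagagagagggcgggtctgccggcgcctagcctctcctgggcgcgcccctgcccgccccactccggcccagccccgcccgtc
Aldh1a1: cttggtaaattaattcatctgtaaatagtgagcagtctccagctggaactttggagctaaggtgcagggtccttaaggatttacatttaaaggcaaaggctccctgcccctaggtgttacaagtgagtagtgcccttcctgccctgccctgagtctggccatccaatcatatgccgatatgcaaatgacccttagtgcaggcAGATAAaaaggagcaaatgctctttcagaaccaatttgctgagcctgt
Nppc: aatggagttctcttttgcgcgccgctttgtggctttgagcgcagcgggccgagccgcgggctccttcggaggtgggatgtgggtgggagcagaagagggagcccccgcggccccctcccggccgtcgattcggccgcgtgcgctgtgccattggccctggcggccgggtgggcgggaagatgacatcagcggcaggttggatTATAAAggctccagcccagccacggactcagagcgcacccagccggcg

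In Xirp2 the capitals mark an AP-1 match that begins 107 bases before the start and a MEF2 site that begins at 74. In Nppb they mark a TATA match on the other strand at 208, a TEAD match at 131 and a GATA match at 110, and in Acta1 a CArG box at 94, a TEAD match on the other strand at 67 and a TATA box at 29. Cpxm2 holds a TEAD match at 242, Aldh1a1 a GATA match at 48 and Nppc a TATA box at 48. Promoters of 300 bases, the last 50 of them past the start, were found for 9880 of the genes tested. A MEF2 site stood in 0.425% of all 9880, in 3.44% (13 of 378) of those called at least 16-fold higher in cardiomyocytes and in none of 35 called at least 16-fold lower. The 13 genes are Asb18, Cox6a2, Hspb3, Hspb7, Klhl41, Mybpc3, Myoz2, Ppp1r3a, Smpx, Speg, Tnfrsf17, Trim72 and Xirp2, of which Asb18, Hspb3, Hspb7, Klhl41, Speg, Tnfrsf17 and Trim72 were singled out by this match after the values were seen. The CArG box stood in 1.33% of all promoters and in 2.91% (11 of 378) of the group at least 16-fold higher, Acta1 and Actc1 among them. The shares of all and of the group at least 16-fold higher were 6.86% and 16.9% for the TATA box, 4.89% and 10.1% for AP-1, 11.1% and 13.8% for TEAD and 6.05% and 7.94% for GATA. In the group at least 16-fold lower, with 35 promoters, TATA was in 8.57%, AP-1 in 5.71%, TEAD in 17.1% and GATA in 20%. A TATA match overlapped a MEF2 site or a CArG box in 16 promoters. A match is a description of letters, and no shares were tested.

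Contractile filament genes were higher in cardiomyocytes with few exceptions. Of 14 thick filament genes tested, 13 were higher in cardiomyocytes, with a median log2 difference of 7.63, and all 13 thin filament genes were higher, with a median of 7.41 (6.89 with Lmod3, which had no fibroblast count, at its lower bound). All 23 tested Z-disc and costamere genes were higher as well, with a median of 6.83. Myh7 and Myh6, the slow and fast cardiac myosin heavy chains, were at 6280, 7440 and 7280 CPM and at 3980, 5740 and 6100 CPM in cardiomyocytes. In fibroblasts they were at 7.97 and 10.5 CPM and at 5.52 and 10 CPM, and the log2 differences were 9.57 ± 0.21 and 9.41 ± 0.33. Neither overlapped, and cardiomyocytes likewise lay above in every library for 40.4% of all genes tested. Actc1, cardiac α-actin, stood at 19400, 19600 and 21100 CPM against 18.6 and 21.9 CPM (9.95 ± 0.22). Tnnt2, cardiac troponin T, was unlike these in that fibroblasts held 505 and 475 CPM of it against 5610, 6160 and 6560 CPM, a difference of 3.64 ± 0.11. Myl2 and Myl3, ventricular myosin light chains, differed by 9.98 ± 0.17 and 9.94 ± 0.26, and Mybpc3, the cardiac myosin-binding protein C, by 9.70 ± 0.20. Among Z-disc genes Myoz2, Smpx and Trim55 differed by 9.15 ± 0.13, 9.57 ± 0.15 and 9.65 ± 0.16. Myom3, an M-band protein, was the thick filament gene without a call (0.30 ± 0.38). The pairs Acta1 and Actc1, and Myh6 and Myh7, are so alike in sequence that reads may have been shared between them, and their single values are uncertain. Ttn, the titin gene, was not analysed here.

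Genes named for skeletal muscle did not move as a block. Of 11 tested, 6 were higher and 4 lower in cardiomyocytes, with a median of 3.80. Casq1, the skeletal calsequestrin, was at 357, 464 and 471 CPM against 0.99 and 1.22 CPM (8.6 ± 0.55), and Mybpc2, the fast skeletal myosin-binding protein C, differed by 6.99 ± 0.25. Tnni1, the slow skeletal troponin I that is also the fetal cardiac form, was among the thin filament genes at 9.41 ± 0.14, beside Tnni3, the adult cardiac form, at 8.84 ± 0.19. Against the majority, Neb, the thin filament ruler nebulin, was at 0.69, 0.76 and 0.482 CPM in cardiomyocytes and 4.48 and 3.54 CPM in fibroblasts (-2.64 ± 0.28), and Myh2 was the largest of the 4 lower genes.

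The contrast between muscle genes and their counterparts of general use was followed in 34 pairs. The muscle member was higher in cardiomyocytes in 33 pairs, with a median of 4.88, and in the remaining pair Cox7a1 was not called (1.10 ± 0.56). The other member was lower in 12 pairs, higher in 14 and not called in 7, with a median of 0.08. The partners of cytoskeletal genes were mostly lower or not called. Non-muscle myosin Myh9 was at -1.64 ± 0.22 beside Myh7, vimentin (Vim) at -1.20 ± 0.15 beside desmin (Des, 7.84 ± 0.11), and filamin A (Flna) at -1.59 ± 0.18 beside the muscle filamin Flnc (1.92 ± 0.10). Tpm4 was at -1.39 ± 0.14 beside Tpm1 (2.23 ± 0.13), and Lmod1, the smooth muscle leiomodin, at -2.30 ± 0.24 beside the cardiac Lmod2. Partners of energy genes were mostly higher too. The hexokinases Hk1 and Hk2 differed by 1.39 ± 0.068 and 1.37 ± 0.17, the phosphofructokinases Pfkp and Pfkm by 1.89 ± 0.072 and 1.85 ± 0.087, and lactate dehydrogenases Ldha and Ldhb by 2.19 ± 0.13 and 4.38 ± 0.095. Creatine kinase split between its forms, with Ckm, the muscle form, at 9.02 ± 0.25 (8.20 and 10.91 without fibroblast replicates 1 and 2) and Ckb, the brain form, at 0.08 ± 0.21.

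**Figure D3:**
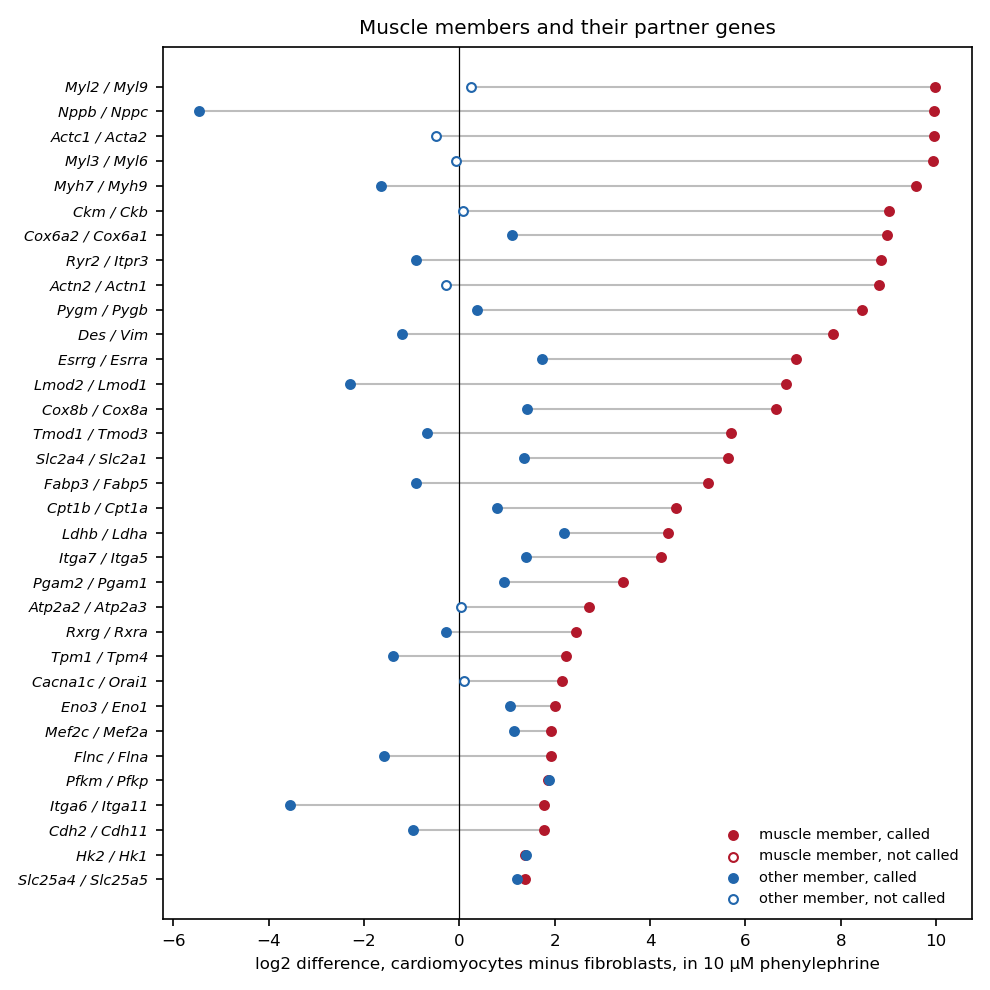
Fitted log2 difference between cardiomyocytes and fibroblasts in 10 µM phenylephrine for the pairs with both members tested, red for the muscle member and blue for its counterpart, with open symbols for genes not called. Muscle members lie to the right of zero in every pair shown, while the counterparts spread to both sides, those of the cytoskeleton mostly to the left and those of energy supply mostly to the right.

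Genes of excitation and calcium cycling were mostly higher in cardiomyocytes. Of 22 potassium, sodium and pacemaker channel genes tested, 21 were higher, with a median of 4.91 (4.35 with the genes that fibroblasts lacked at their bounds). The exception, Kcnd3, a subunit of the transient outward potassium current, was at 14.3, 13.6 and 13.7 CPM in cardiomyocytes and at 127 and 132 CPM in fibroblasts (-3.22 ± 0.10, adjusted p = 1.7e-10). The libraries of each cell type lay close together, and the groups did not overlap. Cardiomyocytes likewise lay below in every library for 39.0% of all genes tested. Of 25 calcium handling genes, 17 were higher and 6 lower, with a median of 2.50. Ryr2, the calcium release channel of the sarcoplasmic reticulum, was at 529, 544 and 567 CPM against 0.834 and 1.55 CPM (8.85 ± 0.18), and Pln, the pump inhibitor phospholamban, differed by 8.62 ± 0.23. Atp2a2, the calcium pump that fibroblasts also use, differed by only 2.72 ± 0.15, and the exchanger Slc8a1 by 2.50 ± 0.12. The inositol trisphosphate receptors Itpr1 and Itpr3 were lower in cardiomyocytes, by -0.84 ± 0.076 and -0.91 ± 0.078.

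Of 18 intercalated disc genes tested, 14 were higher and 1 lower, with a median of 3.32. Dsp and Dsg2, which encode desmoplakin and a desmosomal cadherin, differed by 5.57 ± 0.11 and 7.33 ± 0.12. Gja1, the ventricular gap junction protein connexin 43, was at 604, 666 and 686 CPM against 21.4 and 24.9 CPM (4.82 ± 0.25). Nrap, which links actin to the disc, differed by 9.13 ± 0.17. Ctnnb1, β-catenin, was the one lower gene (-0.30 ± 0.062).

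Genes of the natriuretic peptide system differed in both directions. The peptides Nppa and Nppb, Corin, the protease that activates them, and Furin were higher in cardiomyocytes, and the receptors Npr1, Npr2 and Npr3 were lower. Of 11 genes of the list tested, 5 (45.5%) were higher and 6 (54.5%) lower, beside 33.7% and 31.2% over all genes tested. Nppa, the precursor of atrial natriuretic peptide, was at 23300, 24300 and 25400 CPM against 30.7 and 39.5 CPM (9.44 ± 0.18). Corin was at 5.09, 7.93 and 6.75 CPM against 0.208 and 0.553 CPM (4.11 ± 0.38, and 3.56 and 4.94 without fibroblast replicates 1 and 2). Nppc, the peptide of the other sign, was at 0.265, 0.163 and 0.241 CPM against 10.2 and 9.95 CPM, in cardiomyocytes close to the floor of 3 counts. Npr1, the guanylyl cyclase receptor of Nppa and Nppb, was at 9.71, 9.02 and 7.77 CPM against 43 and 42.8 CPM (-2.28 ± 0.12). Npr2, the receptor of Nppc, and Npr3, the clearance receptor, differed by -1.71 ± 0.092 and -1.93 ± 0.10. Neprilysin (Mme), which degrades the peptides, was lower as well (-1.79 ± 0.21), and so was the cyclic GMP phosphodiesterase Pde5a (-1.46 ± 0.17), while Pde2a was higher (0.73 ± 0.14).

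Transcription factors of the 2 lineages differed in both directions. Of 27 cardiac factors tested, 24 were higher and 3 lower, with a median of 2.81. Nkx2-5, a homeobox factor of the cardiac lineage, was at 49, 53.8 and 63.6 CPM against 0.0521 and 0.497 CPM (7.66 ± 0.34, and 6.78 and 9.89 without fibroblast replicates 1 and 2). Myocd, the serum response factor coactivator myocardin, was at 133, 144 and 143 CPM against 2.45 and 1.66 CPM (6.08 ± 0.14), and Tbx5 at 28.3, 33.5 and 34.2 CPM against 1.25 and 0.94 CPM (4.86 ± 0.16). Each of the 3 factors was separated in all libraries, with cardiomyocytes above, as were 40.4% of all genes tested. Esrrg, a nuclear receptor of mitochondrial genes, differed by 7.06 ± 0.17 and Hand1 was at least 26.8-fold higher. Gata4 and Gata6 stood on opposite sides. Gata4 was at 364, 394 and 404 CPM against 232 and 223 CPM (0.77 ± 0.065), whereas Gata6 was at 67.2, 59.7 and 67.5 CPM against 80.8 and 75.8 CPM (-0.27 ± 0.076, adjusted p = 0.00786). Of the Mef2 factors, Mef2c was higher by 1.92 ± 0.13, Mef2a by 1.14 ± 0.059 and Mef2d by 0.45 ± 0.078, and Hand2 differed by 0.73 ± 0.12. Nr2f2, an orphan receptor of atrial and venous identity, and the GATA cofactor Zfpm2 were among the 3 lower factors (-1.28 ± 0.099 and -0.55 ± 0.092).

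Of 26 fibroblast factors tested, 21 were lower in cardiomyocytes and 2 higher, with a median of -1.15. Tcf21, a factor of the cardiac fibroblast lineage, was at 22.4, 15.2 and 19.8 CPM against 131 and 124 CPM (-2.74 ± 0.17). Osr1 was lower by -3.16 ± 0.18, Sox9, a factor of matrix-forming cells, by -2.25 ± 0.16 and Ebf1 by -1.91 ± 0.15. Twist1 was closer between the cell types (-0.61 ± 0.14). Pparg and Meox1 were the 2 higher genes, at 1.86 ± 0.46 and 0.94 ± 0.28. Of 16 genes of the TEAD and YAP list, 11 were lower and 1 higher, with a median of -0.61. The cofactor Vgll3 was lower by -2.63 ± 0.12 and the target Ctgf, a matricellular growth factor, by -1.11 ± 0.18, while Tead1 (-0.10 ± 0.086) and Yap1 (0.02 ± 0.058) were not called. Of 13 AP-1 genes, 5 were higher and 4 lower, with a median of 0.01. The shares were 38.5% and 30.8%, near the 33.7% and 31.2% over all genes tested. Atf3, Fosl1, Jun and Fos were higher, by 1.92 ± 0.20, 1.75 ± 0.29, 1.06 ± 0.089 and 0.89 ± 0.17. Jdp2, Maff, Fosl2 and Atf4 were lower, by -1.48 ± 0.095, -0.98 ± 0.11, -0.62 ± 0.13 and -0.43 ± 0.086. Both Hox genes that passed the filter, Hoxb2 and Hoxb3, were lower in cardiomyocytes, at no more than 1.2 CPM in any library.

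The extracellular matrix lists leaned to the fibroblasts, with exceptions of large size. Of 19 fibrillar and network collagens tested, 14 were lower in cardiomyocytes and 5 not called, with a median of -1.98. Col1a1, the main chain of collagen I, was at 9700, 6400 and 6200 CPM in cardiomyocytes and at 36100 and 33800 CPM in fibroblasts (-2.23 ± 0.28). Without cardiomyocyte replicates 1, 2 and 3 in turn it differed by -2.47, -2.14 and -2.12. Col3a1 was at 4080, 1840 and 1930 CPM against 17300 and 17100 CPM (-2.72 ± 0.42, and -3.19, -2.52 and -2.54 in the same refits). Replicate 1 was the highest cardiomyocyte library for both, and no library overlapped, as for 39.0% of all genes tested with cardiomyocytes below. Col14a1 and Col24a1 differed by -3.22 ± 0.27 and -4.03 ± 0.23, and Col8a1, a short-chain collagen, by -0.93 ± 0.27. Of 17 genes of collagen processing, 14 were lower and 1 higher, with a median of -1.43; P4ha2, a proline hydroxylase, and Plod2, a lysine hydroxylase, differed by -2 ± 0.088 and -1.99 ± 0.14. The cross-linking enzyme Lox differed by -2.09 ± 0.23.

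Of 26 matrix glycoproteins and elastic fibre genes, 21 were lower and 3 higher, with a median of -1.65. Fn1, fibronectin, was at 4400, 4130 and 3670 CPM against 11800 and 11600 CPM (-1.53 ± 0.11), and Postn, the matricellular protein periostin, at 782, 420 and 441 CPM against 1780 and 2140 CPM (-1.84 ± 0.34). Spp1, osteopontin, went the other way at 149, 122 and 121 CPM against 14.9 and 12.6 CPM (3.25 ± 0.18). Among basement membrane genes, 12 of 22 were lower and 4 higher, with a median of -0.43. Lamb3, a laminin chain, was a large exception. It was at 185, 223 and 229 CPM against 1.3 and 1.27 CPM (7.36 ± 0.41). Of 21 proteoglycans, 13 were lower and 5 higher, with a median of -1.48. The glypicans split, with Gpc1 at 558, 474 and 518 CPM against 59.1 and 58.4 CPM (3.14 ± 0.12), Gpc4 at -3.03 ± 0.17 and Gpc3 at -2.73 ± 0.097. Of 26 proteases and inhibitors, 14 were lower and 9 higher, with a median of -0.91. The gelatinase Mmp2 and its activator Mmp14 were lower, by -1.90 ± 0.20 and -1.60 ± 0.13, and the membrane protease Mmp15 was higher (2.92 ± 0.14).

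Cell surface and contractile genes of fibroblasts were mostly lower in cardiomyocytes as well. Of 17 fibroblast surface genes tested, 14 were lower and 2 higher, with a median of -1.20. Pdgfra, the platelet-derived growth factor receptor of fibroblasts, was at 79.2, 46.7 and 49.5 CPM against 221 and 227 CPM (-1.94 ± 0.21), and the endocytic receptor Lrp1 differed by -2.43 ± 0.20. S100a4, which is also named fibroblast-specific protein, was higher in cardiomyocytes (1.52 ± 0.097), as was Nt5e (1.01 ± 0.10). Of 22 myofibroblast and smooth muscle genes, 14 were lower and 2 higher, with a median of -1.07. Acta2, smooth muscle α-actin and the usual myofibroblast marker, was at 2870, 2980 and 3330 CPM against 4330 and 4250 CPM. The groups did not overlap, yet the difference of -0.49 ± 0.22 did not pass the test (adjusted p = 0.0731). Tagln was lower (-1.37 ± 0.29), and calponin Cnn1 and the enteric actin Actg2 were higher (1.67 ± 0.25 and 1.47 ± 0.20). Of 18 integrin genes, 10 (55.6%) were lower and 6 (33.3%) higher, beside 31.2% and 33.7% over all genes tested. The collagen-binding Itga11 was lower by -3.55 ± 0.44, and the muscle laminin receptor Itga7 was higher by 4.23 ± 0.18.

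**Figure D4:**
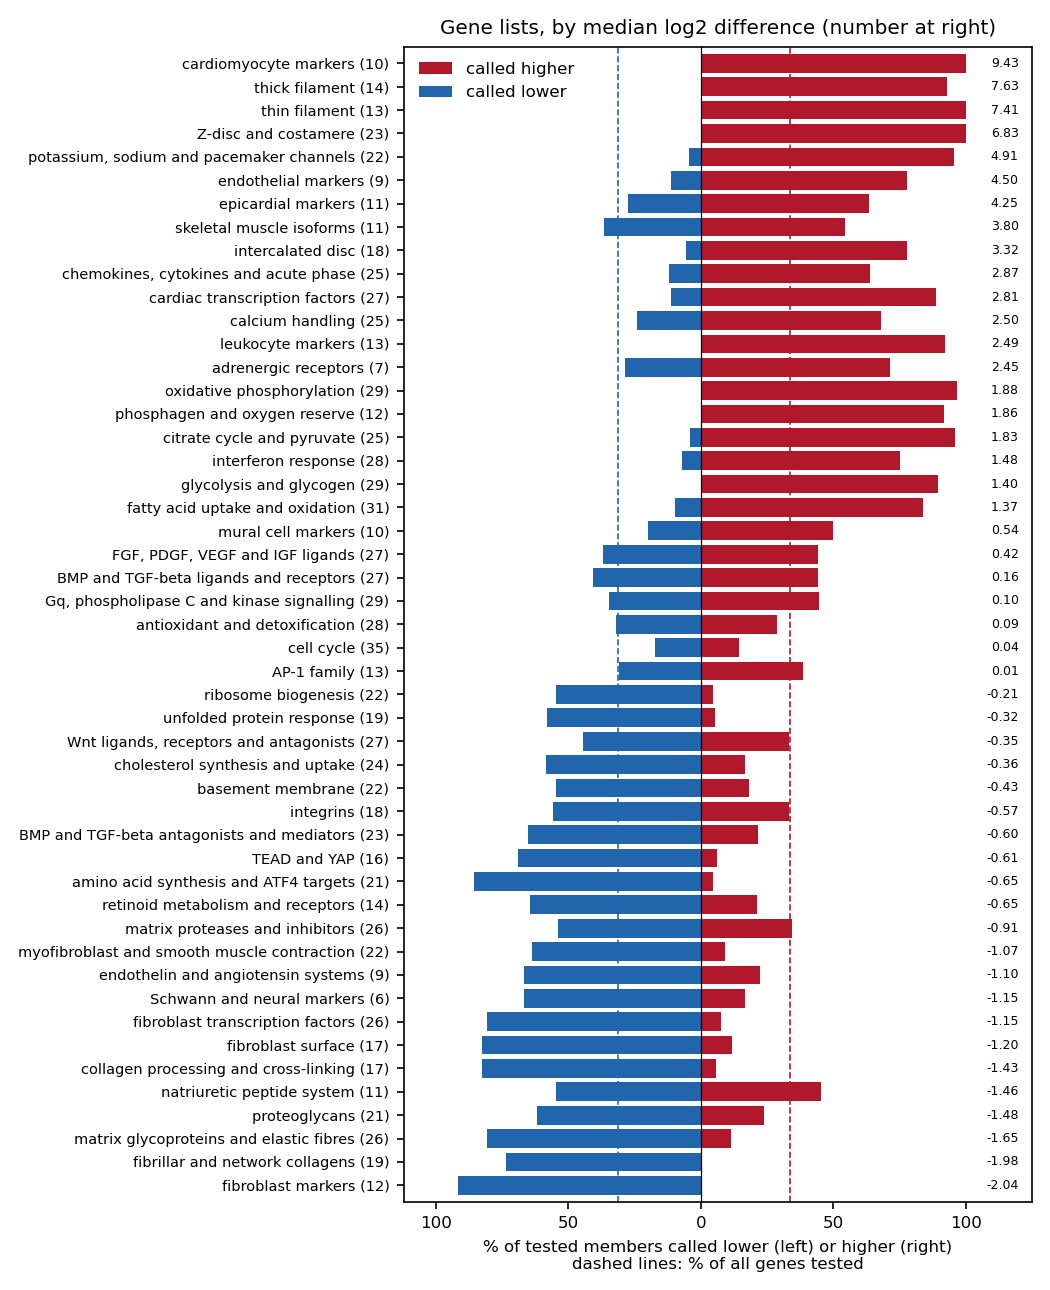
Percent of the tested members of each list of 5 or more genes that were called higher (red, right) or lower (blue, left) in cardiomyocytes in 10 µM phenylephrine, ordered by the list's median log2 difference, which is printed at the right, with the number tested in parentheses. Dashed lines give the same percents over all 13869 genes tested, 33.7% higher and 31.2% lower. Filament, Z-disc, channel and energy lists lie beyond the red line and collagen and fibroblast lists beyond the blue line.

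Secreted factors differed in both directions, as did all genes tested, of which 33.7% were higher and 31.2% lower. The bone morphogenetic protein (BMP) and TGF-beta family had 27 ligands and receptors tested. Of these, 12 (44.4%) were higher and 11 (40.7%) lower in cardiomyocytes, with a median of 0.16. Besides Bmp7, Bmp10, a cardiac BMP, was at 18.3, 17.7 and 22.9 CPM against 0.0521 CPM and no count, a ratio of 736 (counting interval 132 to 29100). Bmp4 was at 19, 15.5 and 14.4 CPM against 122 and 122 CPM (-2.90 ± 0.20) and Bmp6 at 32.9, 30.3 and 29.5 CPM against 210 and 197 CPM (-2.72 ± 0.069). Bmp3 was lower by -3.78 ± 0.15 and the activin subunit Inhbb by -2.93 ± 0.13. The libraries of the 2 cell types did not overlap for any of these 5 genes. The same held over all genes tested for 40.4% with cardiomyocytes above and 39.0% with them below. Tgfb2 was higher (1.22 ± 0.097) and so was the inhibin subunit Inha (2.77 ± 0.18). Of 23 antagonists and mediators, 15 were lower and 5 higher, with a median of -0.60. The BMP antagonists Nog and Chrd were lower, by -4.05 ± 0.30 and -2.41 ± 0.18, while Grem1 was higher (1.28 ± 0.14).

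Among 27 fibroblast, platelet-derived, vascular endothelial and insulin-like growth factor ligands, 12 were higher and 10 lower, with a median of 0.42. The shares were 44.4% and 37.0%, beside 33.7% and 31.2% over all genes tested. Fgf1 was at 141, 118 and 116 CPM against 10.2 and 10.9 CPM (3.57 ± 0.11), and Fgf13, an intracellular relative that modulates sodium channels, at 21.9, 25.6 and 29.2 CPM against 0.104 and 0.166 CPM (7.51 ± 0.25). Pdgfd was lower (-2.43 ± 0.11). Of 27 Wnt pathway genes, 9 (33.3%) were higher and 12 (44.4%) lower. The secreted antagonist Sfrp1 was at 4.93 ± 0.14, Wnt4 at -3.49 ± 0.21 and Dkk3 at -1.70 ± 0.11. Of 14 retinoid genes, 9 were lower and 3 higher, with a median of -0.65. Aldh1a2, the second retinaldehyde dehydrogenase, was at 27.7, 18.9 and 18.4 CPM against 153 and 158 CPM (-2.84 ± 0.18), below the fibroblasts like Aldh1a1, while Cyp26b1, which breaks retinoic acid down, was higher (2.30 ± 0.27).

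The receptors that phenylephrine acts on were far lower in fibroblasts. Adra1a was at 23.4, 25.1 and 26.2 CPM in cardiomyocytes against 0.261 and 0.166 CPM (6.82 ± 0.28), Adra1b at 5.67, 7.01 and 6.8 CPM against 1.04 and 1.33 CPM (2.45 ± 0.30), and Adra1d at 1.22, 2.01 and 3.04 CPM against 0.0521 and 0.111 CPM, a ratio of 26.4 (8.81 to 130). None of the 3 overlapped between cell types, and 40.4% of all genes tested likewise had every cardiomyocyte library above both fibroblast libraries. Of 7 adrenergic receptor genes tested, 5 were higher and 2 lower. Adrb1, the main cardiac beta receptor, was higher (3.10 ± 0.29). Of 29 genes of Gq, phospholipase C and kinase signalling, 13 were higher and 10 lower, with a median of 0.10. The shares were 44.8% and 34.5%, beside 33.7% and 31.2% over all genes tested. The phosphatase Dusp5, a feedback inhibitor of ERK, was higher by 5 ± 0.25, and Plcb3, a Gq-activated phospholipase, lower by -1.76 ± 0.064. Of 9 endothelin and angiotensin genes, 6 were lower and 2 higher. Edn1, the precursor of endothelin, was at 17.4, 13 and 12.2 CPM against 113 and 111 CPM (-2.98 ± 0.22), its receptor Ednra at 72.3, 73.4 and 82.4 CPM against 6.25 and 7.79 CPM (3.44 ± 0.14), and the angiotensin receptor Agtr1a at 5.73, 2.72 and 4.15 CPM against 62.2 and 62.6 CPM (-3.89 ± 0.23). The other endothelin receptor, Ednrb, was at 3.34, 2.23 and 2.03 CPM against 6.88 and 7.63 CPM (-1.52 ± 0.19), on the same side as Edn1 and the opposite side from Ednra. Rcan1, a target and regulator of calcineurin, was higher by 4.25 ± 0.13.

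Energy metabolism was higher in cardiomyocytes almost throughout. Of 29 oxidative phosphorylation genes encoded in the nucleus, 28 were higher, with a median of 1.88, and of 25 genes of the citrate cycle and pyruvate, 24 were higher, with a median of 1.83. Fatty acid uptake and oxidation had 26 of 31 higher and 3 lower (median 1.37), glycolysis and glycogen 26 of 29 higher (median 1.40), and the phosphagen and oxygen reserve list 11 of 12 higher (median 1.86). The typical difference in these lists was a few fold, with a small number of muscle isoforms far beyond it. Cox6a2, a cytochrome oxidase subunit made in muscle, differed by 8.96 ± 0.18, against 2.26 ± 0.073 for Cox7b and 2.08 ± 0.069 for the complex I subunit Ndufb5. Cd36, the fatty acid transporter, was at 52.4, 50.1 and 50 CPM against 0.313 and 0.276 CPM (7.40 ± 0.17), whereas the dehydrogenases Acadm and Acadl differed by 2.35 ± 0.069 and 2.47 ± 0.073. Pygm, muscle glycogen phosphorylase, differed by 8.44 ± 0.16 and the mitochondrial pyruvate carrier Mpc1 by 2.61 ± 0.086. The cytosolic isocitrate dehydrogenase Idh1 was the lower gene of the citrate list (-1.12 ± 0.11), beside its mitochondrial relative Idh2 at 2.52 ± 0.10. Fabp5, a fatty acid binding protein outside muscle, and the lipase Lpl were lower (-0.91 ± 0.15 and -0.67 ± 0.11).

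Biosynthetic lists leaned to the fibroblasts by small amounts. Of 21 genes of amino acid synthesis and the ATF4 response, 18 were lower and 1 higher, with a median of -0.65. Atf5 differed by -2.14 ± 0.10 and Phgdh, which opens serine synthesis, by -1.53 ± 0.085. Of 19 unfolded protein response genes, 11 were lower and 1 higher, with a median of -0.32, and of 22 ribosome biogenesis genes, 12 were lower and 1 higher, with a median of -0.21. The ribosome biogenesis count was 7 without fibroblast replicate 2. Of 35 cell cycle genes, 5 were higher and 6 lower, with a median of 0.04 and shares of 14.3% and 17.1% that are below the 33.7% and 31.2% over all genes. Cyclin genes differed in sign, with Ccnd2 at 0.78 ± 0.056 and Ccnd3 at -1.19 ± 0.075. Without both libraries that stood apart, cardiomyocyte replicate 1 with phenylephrine and replicate 2 without, 15 were higher and 11 lower.

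Most interferon and chemokine genes tested were higher in the cardiomyocyte cultures, and so were most leukocyte and endothelial markers, while other marker lists were mixed. Of 28 interferon response genes tested, 21 were higher and 2 lower, with a median of 1.48. Isg15, a ubiquitin-like protein induced by interferon, was at 37.1, 50.9 and 63.6 CPM against 1.61 and 1.55 CPM (4.99 ± 0.30), while Ifit2 was at 37.8, 37 and 36.3 CPM against 96.3 and 90.7 CPM (-1.34 ± 0.065). Of 25 chemokine, cytokine and acute phase genes, 16 were higher and 3 lower, with a median of 2.87, or 10 higher without either fibroblast replicate. Cxcl10, a chemokine that attracts T cells, was at 59, 108 and 134 CPM against 0.208 and 0.166 CPM (9.02 ± 0.74). Of 13 leukocyte markers, 12 were higher in the cardiomyocyte cultures, with a summed level of 138 to 178 CPM against 31.2 and 32.6 CPM. Among them Lyz2 differed by 4.31 ± 0.29, Cd74 by 5.55 ± 0.55 and Ptprc, the pan-leukocyte antigen, by 2.49 ± 0.23, and none was at 0 in either group. Of 9 endothelial markers 7 were higher and 1 lower, with sums of 98 to 127 CPM against 64.7 and 67.9 CPM. Kdr differed by 7.14 ± 0.29 (6.47 and 8.58 without fibroblast replicates 2 and 1), and Emcn had no fibroblast count. Of 11 epicardial and mesothelial markers 7 were higher and 3 lower, with sums of 210 to 285 CPM against 245 and 250 CPM. Msln, mesothelin, was at 67.9, 47.7 and 46.4 CPM against 1.56 and 1.55 CPM (5.11 ± 0.25), while Upk3b and Aldh1a2 were lower (-1.14 ± 0.31 and -2.84 ± 0.18).

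Of 10 mural cell markers 5 were higher and 2 lower, beside 33.7% and 31.2% over all genes tested. The largest difference of the list was that of Des (7.84 ± 0.11), which is also the muscle member of a pair above. The 5 higher genes are thus not markers of mural cells alone. Cspg4 differed by 1.83 ± 0.22 and Pdgfrb by -1.75 ± 0.21. Of 6 Schwann and neural markers 4 were lower and 1 higher, and Hbb, a haemoglobin chain, was at 4.14, 0.598 and 0.917 CPM against no count and 0.0553 CPM, with replicate 1 the highest. The part of these other cells in the interferon and chemokine values was not tested, and neither was that of fibroblasts in the cardiomyocyte libraries in the matrix values.

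Most of the cell type differences were also present without phenylephrine. Of the 4674 genes higher in cardiomyocytes with the agonist, 3963 (84.8%) were called higher in serum-free medium, which is 82.9% of the 4779 (34.5% of genes tested) higher there. Of the 4334 lower genes 3592 (82.9%) were called lower, which is 81.8% of the 4390 (31.7%) lower there, and 50 genes were called in opposite directions. A call in only 1 medium is no test of a difference. The difference itself, as an interaction term, was called for 451 genes (3.25%), of which 226 (1.63%) were more positive with phenylephrine and 225 (1.62%) more negative. Of 1403 genes called with phenylephrine but not without, 63 had a called interaction. The 451 included 254 genes whose cell type difference was smaller in size with phenylephrine and 197 for which it was larger. In serum-free medium, fibroblast replicates differed by a chi-square of 15.6 for each degree of freedom. Cardiomyocyte replicate 2 differed from replicates 1 and 3 by 23.2 and 23.9, and these from each other by 4.4. The interaction count is unstable. It was 823 without cardiomyocyte replicate 1 with phenylephrine, 1290 without serum-free cardiomyocyte replicate 2, 2657 without both, and 71 and 72 without fibroblast replicates 1 and 2 with phenylephrine.

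**Figure D5:**
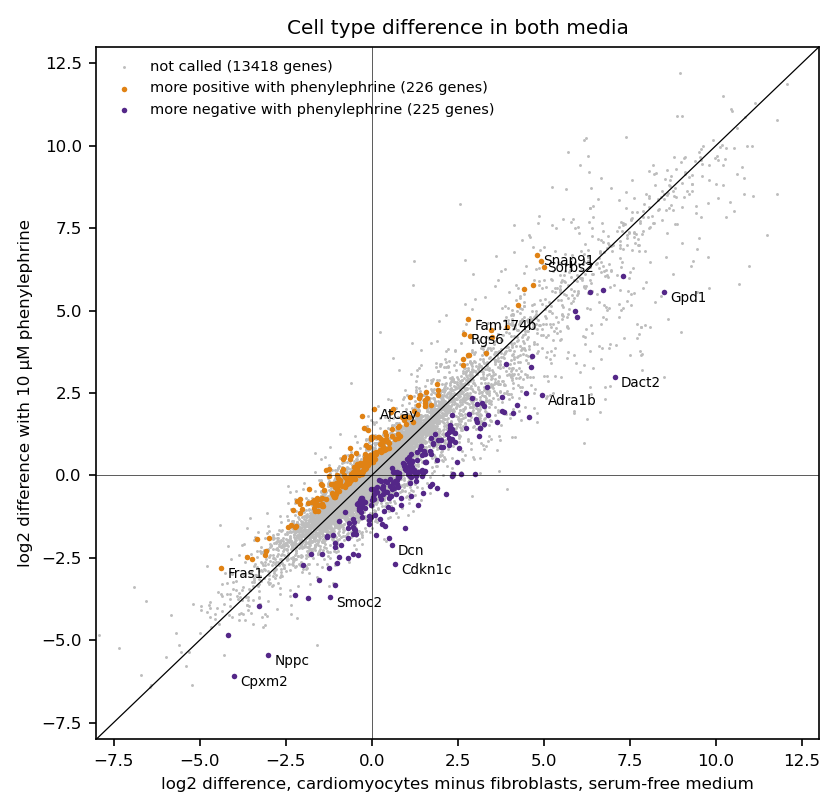
Log2 difference between cardiomyocytes and fibroblasts with 10 µM phenylephrine (vertical axis) against that in serum-free medium (horizontal axis), 1 point for each gene tested, with the line of equality. Orange points are the 226 genes whose difference was more positive with phenylephrine and purple points the 225 for which it was more negative. Most genes follow the line, and Dact2, Cdkn1c and Dcn lie among those far below it.

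Of the markers, Cpxm2 had a cell type difference that grew with phenylephrine. It was at log2 -4 in serum-free medium and -6.07 with the agonist (interaction -2.07 ± 0.29, adjusted p = 0.00534), and its mean level in fibroblasts was 15.9 CPM without and 131 CPM with phenylephrine. Nppc behaved alike, with means of 1.84 and 10.1 CPM in fibroblasts and 0.226 and 0.223 CPM in cardiomyocytes (interaction -2.43 ± 0.50, adjusted p = 0.0255), a call kept in 5 of 10 refits that each left out 1 library. Cdkn1c, an inhibitor of cyclin-dependent kinases, changed sign, at 4.52 against 2.83 CPM in serum-free medium and 3.21 against 20.6 CPM with phenylephrine (interaction -3.35 ± 0.26, adjusted p = 0.00019). Mef2c was on the other side, with means of 80.4 against 54.6 CPM without and 118 against 31.4 CPM with the agonist (interaction 1.36 ± 0.17, adjusted p = 0.00392). The interactions of Cpxm2, Cdkn1c and Mef2c were called in all 10 refits. For Nppb and Xirp2 no interaction was called (-0.16 ± 0.18 and 1.30 ± 0.93).

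A pair of metabolic lists held many of the interactions among list members. Of 24 cholesterol synthesis and uptake genes, 14 were lower in cardiomyocytes with phenylephrine and 4 higher, with a median of -0.36, whereas 21 were lower in serum-free medium, with a median of -1.07. For 9 of the 24 the interaction was called, each more positive with phenylephrine, as were 1.63% of all genes tested. Idi1, an isomerase of the pathway, was at 149, 166 and 167 CPM against 109 and 119 CPM with phenylephrine (0.50 ± 0.12), with an interaction of 1.11 ± 0.17. Insig1, a brake on sterol synthesis, remained lower with phenylephrine (-1.30 ± 0.098). The count of 9 was 14 without serum-free cardiomyocyte replicate 2, fell to between 4 and 6 without each of 4 other libraries (both other cardiomyocyte replicates with phenylephrine, serum-free cardiomyocyte replicate 1 and serum-free fibroblast replicate 1), and to 0 and 2 without fibroblast replicates 1 and 2 with phenylephrine. Of 28 antioxidant and detoxification genes, 8 were higher and 9 lower with phenylephrine, with a median of 0.09. These shares, 28.6% and 32.1%, were near the 33.7% and 31.2% over all genes tested. Without phenylephrine 16 were higher and 7 lower. The interaction was called for 7 of the 28, each more negative with phenylephrine, as were 1.62% of all genes tested. Among them were Gsta4, a glutathione transferase (-1.18 ± 0.20), and Gpx3, a secreted glutathione peroxidase (-0.58 ± 0.13). That count was 13 without serum-free cardiomyocyte replicate 2 and 0 to 3 without any 1 of the 8 libraries other than that and cardiomyocyte replicate 1 with phenylephrine.

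The authors' deposited table of the same comparison gave 4409 genes higher and 3882 lower in cardiomyocytes at an adjusted p below 0.05. Of these, 4368 and 3852 were also called in the same direction by the edgeR test, and none in the opposite one.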

How the data were processed

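RNA was sequenced from 10 libraries of cultured rat cardiomyocytes and cardiac fibroblasts on 1 lane, per the labels. The authors deposited whole-number counts per gene symbol, and their processing notes name cutadapt, TopHat2 2.0.10, HTSeq 0.6.1p1, DESeq2 1.6.3 and the build Rnor_6.0. The strand setting of the counting is not given in the sources used here, so antisense or overlapping genes cannot be told apart, and near copies (Myh6 and Myh7, or Acta1, Acta2 and Actc1) may share reads. The authors also deposited a table with a log2 fold change and an adjusted p-value for each gene, credited where used. A repeat of the 10 library columns was not used.

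From the counts, all 10 libraries in 4 groups were fitted with the edgeR 4.0.16 quasi-likelihood test (R 4.3.3, robust, TMM factors, 6 residual degrees of freedom), after filtering on a minimum count of 10 and a minimum total of 15. The cell type difference with phenylephrine, the same in serum-free medium and their interaction were tested, with Benjamini-Hochberg adjustment over the 13869 genes tested and a call at an adjusted p below 0.05. Each SE is the absolute log2 difference divided by the square root of the test's F statistic. It is thus derived from the test and not a standard error fitted by the model. The script was tested on simulated data. CPM use the scaled library totals; intervals at 95% and floors of 3 counts cover counting error only. A gene with no count in a group was given a lower bound against 3 counts over that group, and one with 1 to 3 counts a ratio with an exact binomial interval.

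The libraries, gene lists, panel and pairs were chosen with earlier results of these data known. Genes were named by rule: the 5 markers; the 12 largest differences each way among called genes of at least 10 CPM whose libraries did not overlap, without provisional symbols; a panel of 105 genes; the members of 34 isoform pairs; up to 4 called members per list with the smallest adjusted p and up to 2 against its majority; the 6 largest called interactions each way; and any member of a list of 15 or fewer genes. Promoter sequences come from RefSeq (GRCr8) and were matched by symbol; 12054 of the tested symbols matched a current RefSeq symbol, and 12758 with synonyms. Alternatives were other scalings, filters and tests (limma 3.58.1, DESeq2 1.42.0), a replicate block, the 2 phenylephrine groups alone, a fold of 2, and leaving out libraries. Deviations of same-numbered libraries of the 2 cell types from their group means had correlations of -0.039 and -0.013. With 2 fibroblast libraries the deviations mirror each other, so these values cannot exclude a pairing. The labels give no pairing. The results of some named genes are not reported here.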

Additional observations from a re-analysis of the deposited data

Results flagged for a closer look

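For 46 of the named genes reported here the cell type difference itself differed between the media, by the interaction term of the edgeR quasi-likelihood fit (Benjamini-Hochberg adjusted p below 0.05). The values that follow are log2 differences with phenylephrine minus those in serum-free medium, so that a negative value means a shift toward the fibroblasts. In refits that each left out 1 of the 10 libraries, 9 of the 46 stayed called throughout. These are Snap91 (1.90), Sorbs2 (1.58), Mef2c (1.36), Dact2 (-4.07), Cdkn1c (-3.35), Pi16 (-2.40), Cpxm2 (-2.07), Ednrb (-1.90) and Mmp17 (-0.87). The other 37 lost the call without at least 1 library. Under other settings, 16 of the 46 lost the call with the replicate block, 11 with limma-voom and 45 when a fold of at least 2 was required.

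The shifts toward the cardiomyocytes among those 37 covered several lists. Atcay was at 1.95, Fam174b at 1.92, Rgs6 at 1.6 and Fras1 at 1.58. The activin subunit Inhba was at 1.40 and Tgfb2 at 0.80, and the integrins Itga7 and Itga6 were at 1.37 and 0.80. The sterol genes Idi1 and Nsdhl were at 1.11 and 0.66. Enolase Eno3 was at 1.39, fibronectin Fn1 at 0.68, the protease Adamts12 at 0.67, Pdgfd at 0.67, the light chain Myl6 at 0.60 and the kinase Lats2 at 0.50.

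The shifts toward the fibroblasts included matrix genes. The proteoglycan Dcn was at -2.69, Smoc2 at -2.48, Fbln1 at -2.26, Tnxb at -1.38, Gpc3 at -0.74 and the pentraxin Ptx3 at -0.61. Dcn kept the call in 1 of 10 refits and Fbln1 in 9. Among signalling genes, Adra1b was at -2.49 and kept the call in 2 of 10 refits, Nppc was at -2.43, Grem1 at -1.14, Pde2a at -0.80, Wnt5a at -0.73 and Figf at -0.65. Among genes of excitation and adhesion, Cacna1g was at -1.08, Dsp at -0.78 and Itpr3 at -0.61. Among metabolic and detoxifying genes, Gpd1 was at -2.94, Gsta4 at -1.18, Ak1 at -0.67, Slc6a8 at -0.67, Gpx3 at -0.58 and Pfkm at -0.49.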

How the results depend on the processing

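The 4674 higher and 4334 lower calls stayed within 1.5 times under the other scalings, filters and tests, with ranges of 3421 to 5022 and 3353 to 4859 over the alternatives other than a required fold. When single libraries were left out, the ranges were 3941 to 4854 and 3505 to 4499. Requiring a fold above 2 gave 1735 and 886, by its construction, and 2 interactions. Upper quartile scaling moved the share of calls that were higher from 51.9% to 46.7% and the median of all genes from 0.016 to -0.052. The interaction count of 451 was the unstable result. It was 790 with DESeq2, 230 with the replicate block, 2657 without both libraries that stood apart, and 71 to 1290 when single libraries were left out; the cause was not tested. The block gave 4346 higher and 3982 lower calls, and the labels do not state that equal numbers pair the libraries. With 2 fibroblast libraries a group, a single library decided many values of genes with few fibroblast counts, such as Bmp7 (10.22 to 13.52), Mb (9.64 to 14.32) and Irx4 (9.27 to 12.57). No call among the named genes reversed under any alternative run.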

Other observations

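Group means of some genes with a called interaction are given as values, with no test beyond that of the interaction. Mean levels of Fbln1, a matrix glycoprotein, were 75.2 CPM in fibroblasts without and 407 CPM with phenylephrine, beside 35.5 and 40.4 CPM in cardiomyocytes. Those of Pi16, a surface marker of a fibroblast subset, were 4.24 and 20.6 CPM in fibroblasts beside 5.97 and 5.52 CPM in cardiomyocytes. Dcn, the proteoglycan decorin, was at 151 and 349 CPM in fibroblasts and at 226 and 81.2 CPM in cardiomyocytes. Its serum-free cardiomyocyte libraries were far apart, at 242, 109 and 328 CPM. Snap91, a clathrin adaptor, and Sorbs2, a Z-disc adaptor, were at 7.05 and 2.69 CPM and at 51.8 and 22.7 CPM in fibroblasts. In cardiomyocytes Snap91 was at 196 and 279 CPM and Sorbs2 at 1570 and 2060 CPM.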
